A study of Mus musculus with 16 samples.

Results

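The smooth muscle contractile genes are 10 genes of the contractile apparatus of vascular smooth muscle and myofibroblasts, and their rows were taken by gene symbol from a table of 54532 genes. All 10 were found. They are Acta2, Actg2, Myh11, Mylk, Tagln, Cnn1, Smtn, Lmod1, Synpo2 and Des. The tissue was inguinal white adipose tissue (iWAT) of male mice, sequenced as bulk RNA in 16 libraries, 4 in each of 4 groups. Has2_TG mice carried Apn-rtTA and TRE-Has2 and overexpressed the hyaluronan synthase Has2, and PH20_TG mice carried Apn-rtTA and TRE-PH20 and overexpressed the hyaluronidase PH20, which is encoded by Spam1. Has2_WT and PH20_WT were the littermate controls of each line and carried Apn-rtTA alone. All groups, controls included, received doxycycline at 200 mg/kg in chow for 5 days, and the mice entered the experiments at 8 to 10 weeks of age. The rtTA was driven by the adiponectin promoter, so the transgenes were to be made in adipocytes. The comparisons ask which genes differ in iWAT when adipocytes make more hyaluronan or when hyaluronan is digested. Values are FPKM (fragments relative to the length of the gene and the size of the library, as scaled by the authors), which allows levels to be compared between genes.

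Smooth muscle cells contract when calcium and calmodulin activate myosin light chain kinase, which phosphorylates the regulatory light chain so that the smooth muscle myosin pulls on actin filaments. Calponin, transgelin and smoothelin bind these filaments, and desmin, an intermediate filament protein, ties them to the rest of the cell. In fat these genes are best known from the walls of arterioles and veins, from a share of the pericytes around capillaries, and, for some of them, from activated fibroblasts. Many of them are controlled by serum response factor and its coactivator myocardin through a DNA element named the CArG box.

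The libraries held between 14421692 and 26751729 reads on genes. Has2 itself lay between 1.86 and 3.24 FPKM in Has2_TG and between 0.417 and 0.806 FPKM in Has2_WT. Spam1 had 6, 12 and 5 reads in PH20_TG2, PH20_TG3 and PH20_TG4, whereas PH20_TG1 and all 12 libraries outside PH20_TG had 0. Has2 was also high in 2 libraries of the PH20 line, at 3.32 FPKM in PH20_TG1 and 3.26 FPKM in PH20_TG4, against 0.380 and 0.0990 FPKM in PH20_TG2 and PH20_TG3 and 0.330 to 0.897 FPKM in PH20_WT. With 0 Spam1 reads, and Has2 above the highest Has2_TG library, the library labelled PH20_TG1 had transgene values that went against its label. Has2 in PH20_TG4 was above every Has2_TG library as well, but PH20_TG4 had 5 Spam1 reads. Both libraries were kept in their labelled group. The results of the contractile genes that rest on PH20_TG1 are also given without it, and some are given without PH20_TG4. The 8 adipocyte markers summed to between 9567 and 27077 FPKM in every library. The libraries differed in other tissues. The 8 B cell markers summed to 290 and 245 FPKM in Has2_WT1 and Has2_WT2 and to 306 and 117 FPKM in PH20_WT1 and PH20_WT3, against 1.87 to 5.70 FPKM in the other 12 libraries. The 15 skeletal muscle markers summed to between 34.9 and 1199 FPKM. They were higher in every PH20_WT library (300.2 to 1199 FPKM) than in 3 of the 4 PH20_TG libraries (34.9 to 81.9 FPKM), and they reached 489 and 1042 FPKM in Has2_TG1 and Has2_TG2 against 37.2 and 39.6 FPKM in Has2_TG3 and Has2_TG4. In bulk tissue, fewer cells of a type and less RNA per cell cannot be told apart. No label says more of the replicates than that each is a separate sample of its group, so the p-values measure the spread between these libraries.

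Among the 10 genes, Acta2, the smooth muscle alpha actin, had the highest level (GRCm38 chromosome 19, 34241090 to 34255336, minus strand). Its mean over the 16 libraries was 33.4 FPKM (SD 16.7) and it was above Des, the next in order, in 15 of 16 libraries. Des followed with 12.4 FPKM (SD 5.99; chromosome 1, 75360329 to 75368579) and Smtn, encoding smoothelin, with 9.31 FPKM (SD 2.25; chromosome 11, 3517523 to 3540612). Des was above Smtn in only 9 of the 16 libraries, so the order of these neighbours was not clear of their spread. Synpo2, encoding an actin-binding protein of the Z-disc and of smooth muscle dense bodies, had 5.22 FPKM (SD 1.88; chromosome 3, 123076519 to 123236149). The smooth muscle myosin heavy chain Myh11 had 4.40 FPKM (SD 2.09; chromosome 16, 14194535 to 14291372) and Mylk, the light chain kinase, 3.87 FPKM (SD 0.714; chromosome 16, 34745210 to 35002420). Synpo2 was above Myh11 in 10 and Myh11 above Mylk in 8 of the 16 libraries, so these 3 did not separate. Mylk was above Lmod1, encoding the actin nucleator leiomodin 1, in all 16 libraries, and Lmod1 had 1.12 FPKM (SD 0.477; chromosome 1, 135324807 to 135368065).

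The last 3 genes in this order were near the limit of detection. Actg2, the smooth muscle gamma actin of gut and bladder (chromosome 6, 83512905 to 83536265), had 0.763 FPKM and was listed at 0 in 4 libraries. Cnn1, encoding calponin 1 (chromosome 9, 22099216 to 22109630), had 0.654 FPKM and was listed at 0 in 2 libraries. Tagln, encoding transgelin, also called SM22 alpha (chromosome 9, 45929619 to 45936058), had 0.468 FPKM and was listed at 0 in 1 library. Actg2 was above Cnn1 in 8 and Cnn1 above Tagln in 11 of the 16 libraries, so their order was not clear of the spread. Tagln had at most 48 reads in any library, Cnn1 at most 80 and Actg2 at most 88, and these 3 genes were under the minimum mean of 50 reads in every comparison. They were therefore not tested, and 7 of the 10 genes were.

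Parts of some genes are also counted for, or shared with, another gene. Of the exon bases of Tagln, 67.9% overlap Gm48529 or Pcsk7 on the opposite strand, and 48.3% of the 50-base windows of its transcripts also occur in those genes. The same overlap was 16.3% for Smtn, 6.85% for Mylk, 5.86% for Des and 0 for the other 6 genes. The strand setting of the counting is not given in the sources used here, so for Tagln above all, reads of the gene and of its antisense partners may not be told apart, and its level is uncertain. The part of this overlap in the low level of Tagln was not tested. Acta2 shared 0.353% of its windows with other actin genes and pseudogenes and Myh11 shared 0.400% with the myosins Myh9 and Myh10.

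The promoter of Acta2 is shown because it is the only 1 of the 7 member promoters in the reference that held CArG-like elements. The window is the 250 bases before the RefSeq start of Acta2, chr19:34255374-34255623 on the minus strand of GRCm38.p6, with the 2 elements in capitals. That of Des, chr1:75360042-75360291 on the plus strand, is set beside it because its difference between the lines had the opposite sign to that of Acta2, and it held none.
Acta2: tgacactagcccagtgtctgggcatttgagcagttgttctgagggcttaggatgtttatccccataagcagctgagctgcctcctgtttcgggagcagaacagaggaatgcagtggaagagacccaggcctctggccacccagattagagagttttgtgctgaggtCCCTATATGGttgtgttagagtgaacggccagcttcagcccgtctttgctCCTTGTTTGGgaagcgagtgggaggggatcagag
Des: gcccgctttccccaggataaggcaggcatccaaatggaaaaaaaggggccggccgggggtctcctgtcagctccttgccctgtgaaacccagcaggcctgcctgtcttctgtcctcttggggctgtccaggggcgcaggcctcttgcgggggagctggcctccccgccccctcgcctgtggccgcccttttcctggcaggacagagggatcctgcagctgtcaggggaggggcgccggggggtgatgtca
The strict CArG box, CC followed by 6 bases that are A or T and then GG, reads the same on both strands and was in 0 of the 7 windows, and in 1.47% of all 32851 promoter windows of this length. When 1 G or C was allowed among the 6 central bases, a form chosen after the strict search gave none, Acta2 held 2 matches and the other 6 windows held 0. Of all windows, 8.59% held at least 1 such match and 0.670% held at least 2. The 7 windows are those of Acta2, Cnn1, Des, Lmod1, Mylk, Smtn and Synpo2. A match is a description of the sequence and not a measured binding site.

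**Figure D1:**
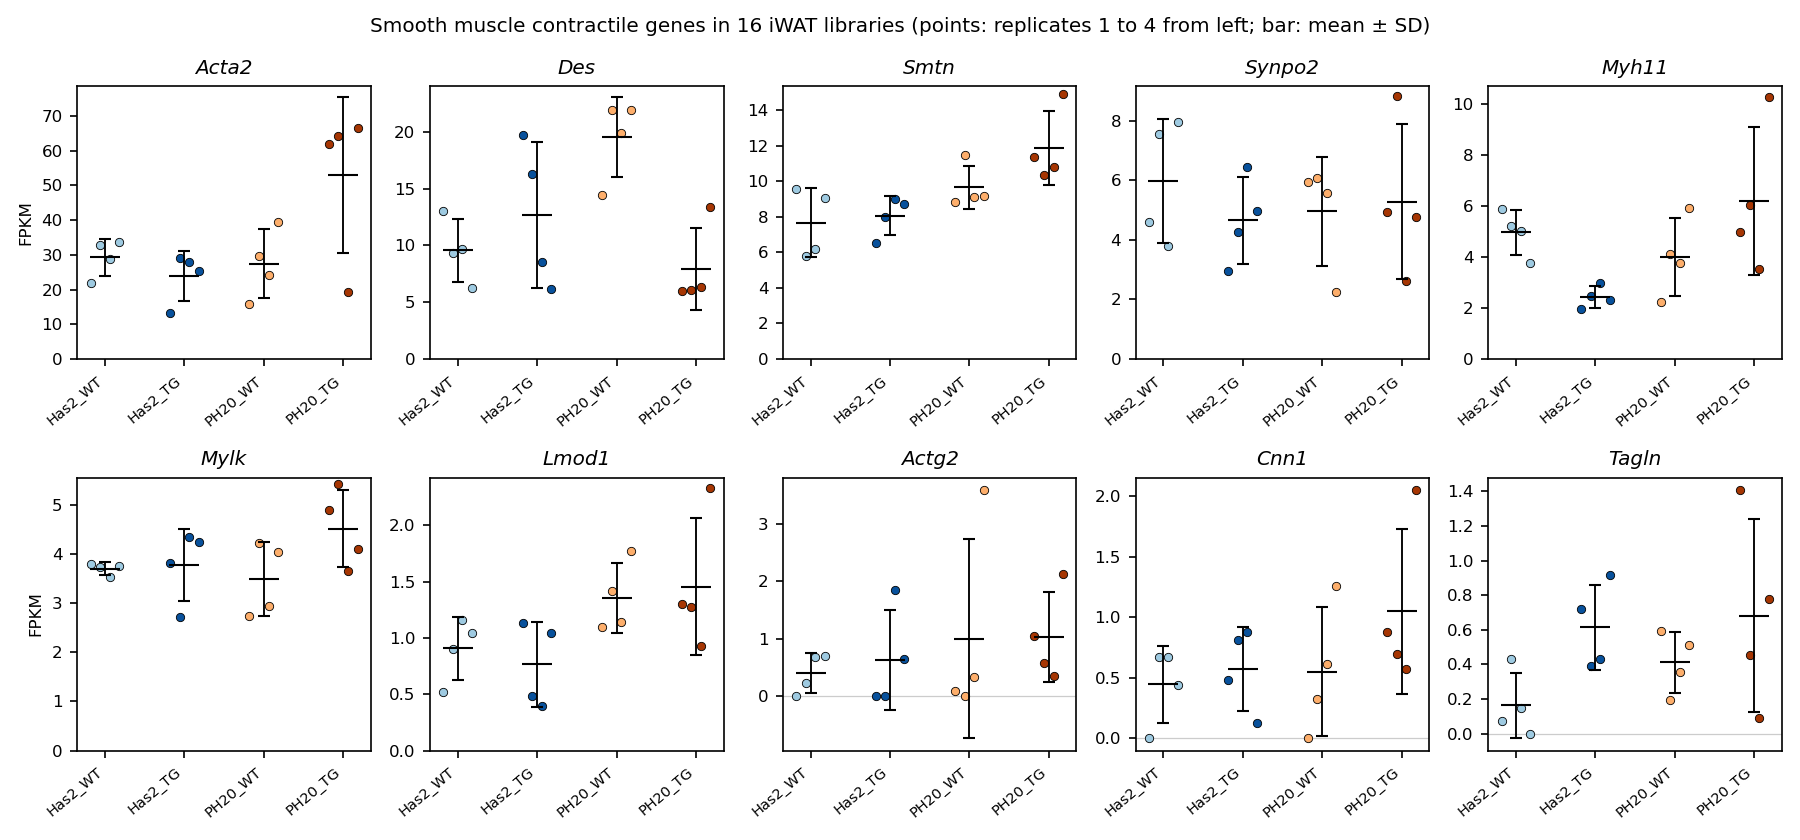
FPKM (linear axis, each panel with its own range) of the 10 genes in the 16 libraries, ordered by mean level, with replicates 1 to 4 from left in each group and bars for the mean ± SD. The Myh11 libraries of Has2_TG (1.96 to 2.98) lie below all those of Has2_WT (3.76 to 5.87), and the Des libraries of PH20_TG (5.97 to 13.3) lie below all those of PH20_WT (14.5 to 21.9).

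In the iWAT of Has2_TG mice, Myh11 fell by 1.002 on the log2 scale, and the other 6 tested contractile genes passed the threshold in neither direction. Myh11 had 5.87, 5.22, 5.00 and 3.76 FPKM in Has2_WT1 to Has2_WT4 and 1.96, 2.45, 2.98 and 2.30 FPKM in Has2_TG1 to Has2_TG4. Every Has2_TG library lay below every Has2_WT library. The group means were 2.42 ± 0.425 FPKM in Has2_TG and 4.96 ± 0.886 FPKM in Has2_WT (SD, n = 4). The log2 fold change of -1.002 (SE 0.21, 95% interval -1.48 to -0.52) had an unadjusted p of 0.000951 and an adjusted p of 0.0912 over all 12606 genes tested (limma). Of the 7 tested contractile genes, 0 were higher and 1 was lower at an unadjusted p under 0.05 (the same counts with voom weights), beside 6.25% of all genes that were higher and 3.75% that were lower. Values of both groups were fully apart for 1 of the 7 genes, Myh11, beside 6.19% of the whole table tested. After adjustment over all genes, 0 of the 7 passed the threshold of 0.05.

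The decrease of Myh11 kept its call when each of the 8 libraries was left out in turn, with log2 fold changes from -1.13 to -0.91. The 2 controls with B cell RNA, Has2_WT1 and Has2_WT2, had the highest Myh11. The other 2 controls had 5.00 and 3.76 FPKM. In the fit with the B cell score (the mean log2 level of the 8 markers) as covariate the change of Myh11 was -0.82 (SE 0.26, unadjusted p = 0.0105). With the skeletal muscle score as a covariate it was -1.003 (SE 0.22, unadjusted p = 0.00158). Every Has2_TG library had little B cell RNA, so the B cell score varied mainly among the controls. The part of B cell RNA in the change of Myh11 was not tested beyond this fit.

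The actin partner of Myh11 did not pass the test in the same mice. Acta2 had 21.9, 32.8, 28.9 and 33.6 FPKM in Has2_WT1 to Has2_WT4 and 13.3, 29.2, 27.8 and 25.3 FPKM in Has2_TG1 to Has2_TG4. The groups overlapped, and the lowest value was that of Has2_TG1. The log2 fold change of Acta2 was -0.34 (SE 0.26, 95% interval -0.92 to 0.24, unadjusted p = 0.225). Without Has2_TG1 it was -0.08.

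Mylk was the most even of the 7 tested genes, with a 1.99-fold range over the 16 libraries. It had 3.52 to 3.79 FPKM in Has2_WT and 2.72 to 4.33 FPKM in Has2_TG, and its log2 fold change was 0.01 (SE 0.20, 95% interval -0.44 to 0.45). The interval of the kinase is thus centred near 0. Smtn had 9.58, 5.79, 6.20 and 9.07 FPKM in Has2_WT1 to Has2_WT4 and 6.55, 8.02, 8.98 and 8.74 FPKM in Has2_TG1 to Has2_TG4, with a log2 fold change of 0.10 (SE 0.21). Lmod1 had a log2 fold change of -0.29 (SE 0.42) and Synpo2 of -0.34 (SE 0.31), neither past the threshold. Des had 12.98, 9.30, 9.68 and 6.28 FPKM in Has2_WT1 to Has2_WT4 and 19.7, 16.3, 8.50 and 6.15 FPKM in Has2_TG1 to Has2_TG4. The 2 highest Des values were those of the libraries rich in skeletal muscle RNA, Has2_TG1 and Has2_TG2, and the log2 fold change was 0.30 (SE 0.37, unadjusted p = 0.444). The median change of the 7 genes was -0.29, beside -0.03 over all genes tested.

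The 3 untested genes of this comparison had few reads. Tagln had 4, 15, 5 and 0 reads in Has2_WT1 to Has2_WT4 and 36, 13, 16 and 38 reads in Has2_TG1 to Has2_TG4, and the groups overlapped. Cnn1 had 0 to 32 reads in Has2_WT and 7 to 45 reads in Has2_TG. Actg2 had 0 to 21 reads in Has2_WT, and 0, 0, 54 and 21 reads in Has2_TG1 to Has2_TG4. At this depth no difference was detectable for Cnn1 or Actg2.

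In the iWAT of PH20_TG mice, Des fell and the other 6 tested genes did not pass the threshold. Des had 14.5, 21.9, 19.9 and 21.9 FPKM in PH20_WT1 to PH20_WT4 and 5.97, 6.04, 6.37 and 13.3 FPKM in PH20_TG1 to PH20_TG4. Every PH20_TG library lay below every PH20_WT library, and PH20_TG4 stood apart from the other 3. The group means were 7.93 ± 3.62 FPKM in PH20_TG and 19.5 ± 3.53 FPKM in PH20_WT (SD, n = 4). The log2 fold change was -1.36 (SE 0.27, 95% interval -1.98 to -0.74), with an unadjusted p of 0.000839 and an adjusted p of 0.657 over 12532 genes (limma). Of the 7 tested genes, 0 were higher and 1 was lower, beside 3.20% and 3.39% of all genes tested, and the counts were the same with voom weights. Only Des had groups fully apart, beside 4.54% in the whole table tested. No gene of the whole table passed after adjustment in this comparison.

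Des is also a gene of striated muscle, and it moved with the skeletal muscle markers. Of the 14 tested skeletal muscle markers, 12 fell in PH20_TG and 0 rose, beside 3.39% and 3.20% of all genes. The median log2 fold change of the 14 markers was -3.81. Their summed level was 300.2 to 1199 FPKM in PH20_WT and 34.9 to 371 FPKM in PH20_TG, and the highest PH20_TG library, PH20_TG4, was also the highest in Des. With the skeletal muscle score as a covariate, the change of Des was -0.54 (SE 0.28, unadjusted p = 0.0858) and was no longer called. The score largely followed the groups, at 3.12 to 5.16 in PH20_WT and -0.40, -1.34, 1.16 and 3.40 in PH20_TG1 to PH20_TG4. Over all genes, this covariate took the calls in PH20_TG from 401 higher and 425 lower to 199 and 109. A call lost with it, here and below, cannot be told apart from lost power. Without a covariate, Des was called without each library in turn, with values from -1.64 without PH20_TG4 to -1.26 without the library labelled PH20_TG1, which had no Spam1 read. The 2 controls with little B cell RNA, PH20_WT2 and PH20_WT4, had 21.9 FPKM each. Every PH20_TG library also had little B cell RNA. In the fit with the B cell covariate the change of Des was -1.54 (SE 0.35, limma unadjusted p = 0.00237). The part of B cell RNA in the change of Des was not tested beyond this fit.

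Acta2 was high in 3 of the 4 PH20_TG libraries. It had 15.9, 29.8, 24.3 and 39.6 FPKM in PH20_WT1 to PH20_WT4 and 61.9, 64.3, 19.2 and 66.4 FPKM in PH20_TG1 to PH20_TG4. PH20_TG3 lay within the range of the controls, and the other 3 lay above every control. The group means were 52.9 ± 22.5 FPKM and 27.4 ± 9.92 FPKM (SD, n = 4), and the log2 fold change was 0.87 (SE 0.43, 95% interval -0.12 to 1.85). The unadjusted p was 0.0773, so the difference was not called, whereas the fit of all 16 libraries, with the same fold change, called it (unadjusted p = 0.0376). Without PH20_TG3 the log2 fold change was 1.30 (unadjusted p = 0.00180), and it was 0.74 (unadjusted p = 0.164) without the library labelled PH20_TG1. Without PH20_TG4 it was 0.71 (limma unadjusted p = 0.175). In the fit with the B cell covariate it was 0.41 (SE 0.51, unadjusted p = 0.449).

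Myh11 showed the same library as the lowest of its group. It had 2.22, 4.12, 3.75 and 5.92 FPKM in PH20_WT1 to PH20_WT4 and 4.96, 6.02, 3.53 and 10.3 FPKM in PH20_TG1 to PH20_TG4, so the groups overlapped. Its log2 fold change was 0.59 (SE 0.37, 95% interval -0.24 to 1.42, unadjusted p = 0.144). The estimate was 0.31 without PH20_TG4, 0.34 without PH20_WT1 and 0.66 without the library labelled PH20_TG1. In the fits with the B cell and the skeletal muscle covariate it was 0.18 and 1.18, and none of these 5 values was called. PH20_TG4 was the highest of the 16 libraries in Acta2, Myh11, Smtn, Lmod1 and Cnn1.

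None of the regulatory and actin-binding genes was called with all 8 libraries and no covariate. Mylk had 2.73 to 4.22 FPKM in PH20_WT and 3.66 to 5.41 FPKM in PH20_TG, with a log2 fold change of 0.37 (SE 0.20, unadjusted p = 0.0954). In the fit with the B cell covariate the change of Mylk was 0.080 (unadjusted p = 0.704), and with the skeletal muscle covariate 0.21 (unadjusted p = 0.541). Smtn had 8.86, 11.5, 9.12 and 9.17 FPKM in PH20_WT1 to PH20_WT4 and 11.4, 10.4, 10.8 and 14.9 FPKM in PH20_TG1 to PH20_TG4. Without PH20_WT2, the highest control, the change of Smtn was 0.37 and was called (unadjusted p = 0.0448), against 0.29 (SE 0.15, unadjusted p = 0.0932) with all libraries. With the skeletal muscle score as a covariate it was 0.66 (unadjusted p = 0.0113), and with the B cell covariate 0.21 (unadjusted p = 0.318). Lmod1, at 0.05 (SE 0.30), and Synpo2, at 0.06 (SE 0.42), had estimates near 0 with wide intervals, from -0.62 to 0.72 and from -0.88 to 1.01. Tagln had 6 to 27 reads in PH20_WT and 3 to 48 reads in PH20_TG, Cnn1 0 to 54 and 26 to 80 reads, and Actg2 0 to 88 and 9 to 47 reads. The groups of these 3 untested genes overlapped. The median change of the 7 tested genes was 0.29, beside 0.01 over all genes tested. It was 0.17 without PH20_TG4, 0.18 with the B cell covariate and 0.52 with the skeletal muscle covariate.

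**Figure D2:**
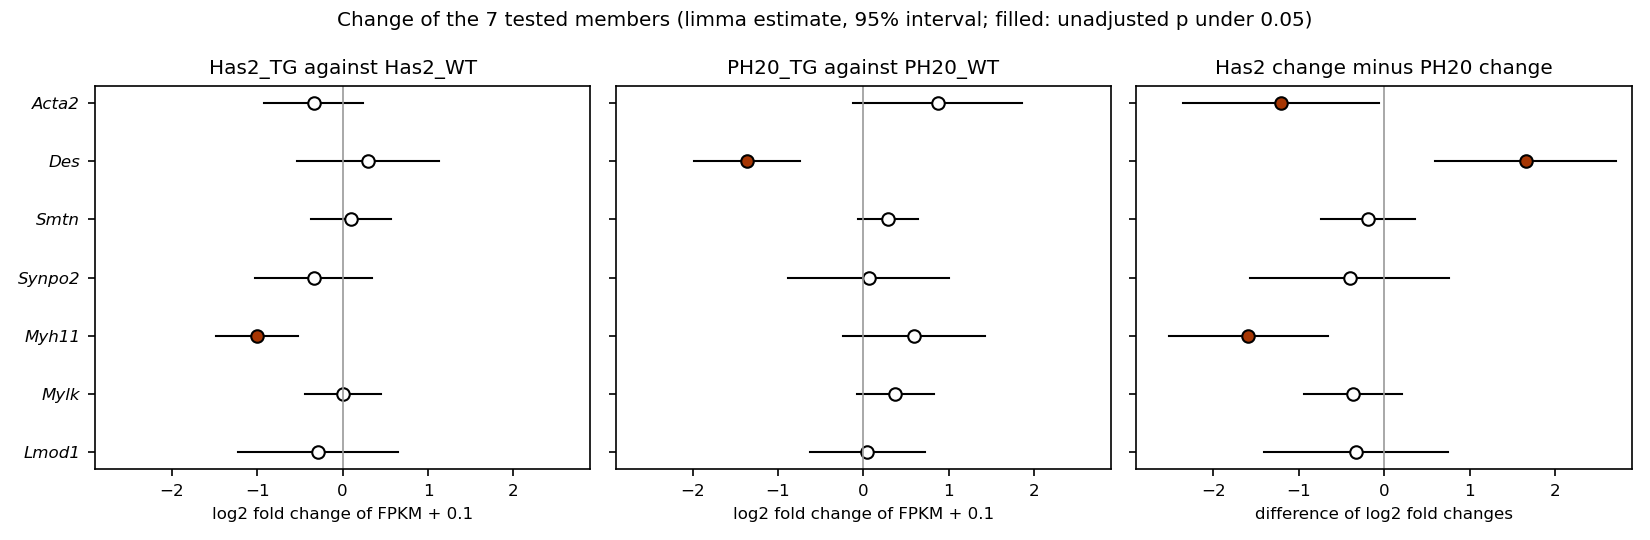
Limma log2 fold changes (points) with 95% intervals (lines) of the 7 tested genes in Has2_TG against Has2_WT, in PH20_TG against PH20_WT, and the difference of both changes, filled where the unadjusted p was under 0.05. Myh11 is filled in the first panel (-1.002), Des in the second (-1.36), and Acta2 (-1.20), Myh11 (-1.59) and Des (1.66) in the third.

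The changes in both lines were compared directly in a fit of all 16 libraries, in which no library serves as control of both lines. The difference, the Has2 change minus the PH20 change, passed the threshold for 3 of the 7 genes, beside 7.70% of the 12593 genes tested. For Myh11 it was -1.59 (SE 0.44, unadjusted p = 0.00233), from -1.002 in Has2_TG and 0.59 in PH20_TG. For Acta2 it was -1.20 (SE 0.54, unadjusted p = 0.0409), from -0.34 and 0.87. For Des it had the other sign, 1.66 (SE 0.50, unadjusted p = 0.00446), from 0.30 and -1.36. None of the 3 passed after adjustment over all genes (limma adjusted p = 0.567 for Myh11 and Des and 0.622 for Acta2).

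The differences of Myh11 and Des kept their call without each of the 16 libraries in turn, at -1.82 to -1.32 and at 1.39 to 1.95. That of Acta2 was called in 7 of the 16, and ranged from -1.64 without PH20_TG3 to -0.94 without Has2_TG1. Without the library labelled PH20_TG1, the differences were -1.66 for Myh11, 1.55 for Des and, not called, -1.08 for Acta2 (unadjusted p = 0.0776). The other 4 genes had differences between -0.40 for Synpo2 and -0.19 for Smtn, and the intervals of all 4 included 0. The differences were not fitted with the skeletal muscle or B cell covariate. With the skeletal muscle covariate, the change of Des in PH20_TG alone was -0.54 and was not called.

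The controls of both lines carried the same genotype and diet but came from different litters, so line and litter cannot be told apart. Des was lower in Has2_WT than in PH20_WT by 1.05 on the log2 scale (SE 0.35, unadjusted p = 0.00908), at 9.56 ± 2.74 against 19.5 ± 3.53 FPKM (SD). It was the only 1 of the 7 genes called, beside 10.3% of all genes, and its groups did not overlap, beside 6.34% of all genes. The skeletal muscle markers summed to 53.5 to 168 FPKM in Has2_WT and 300.2 to 1199 FPKM in PH20_WT. The other 6 genes differed between the controls by -0.56 (Lmod1) to 0.37 (Myh11) on the log2 scale, and Smtn, at -0.36 (SE 0.18), was next to the threshold with an unadjusted p of 0.0696. These values share their control libraries with the comparisons above.

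Across the 16 libraries, Des ran with skeletal muscle RNA rather than with Acta2 or Myh11. The correlation of Des with the skeletal muscle score, the mean log2(FPKM + 0.1) of the 14 tested markers, was Pearson r = 0.87 and Spearman rho = 0.89, and r was 0.89 without the 2 libraries farthest from the median score. Within the 8 Has2 libraries r was 0.80, and within the 8 PH20 libraries 0.94. Of Acta2 and Des it was r = -0.32 (rho = -0.24). Des and Myh11 had r = -0.06, but 0.46 with each gene centred within its group. Acta2 and Myh11 had r = 0.75 and rho = 0.74, with 0.62 without the 2 farthest libraries, 0.46 within the Has2 libraries and 0.87 within the PH20 libraries. Mylk had r = -0.61 (rho = -0.50) with the skeletal muscle score, and Myh11 -0.03. Both measures of a pair come from the same libraries with the same scaling, and the 6 pairs described here were given no test.

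**Figure D3:**
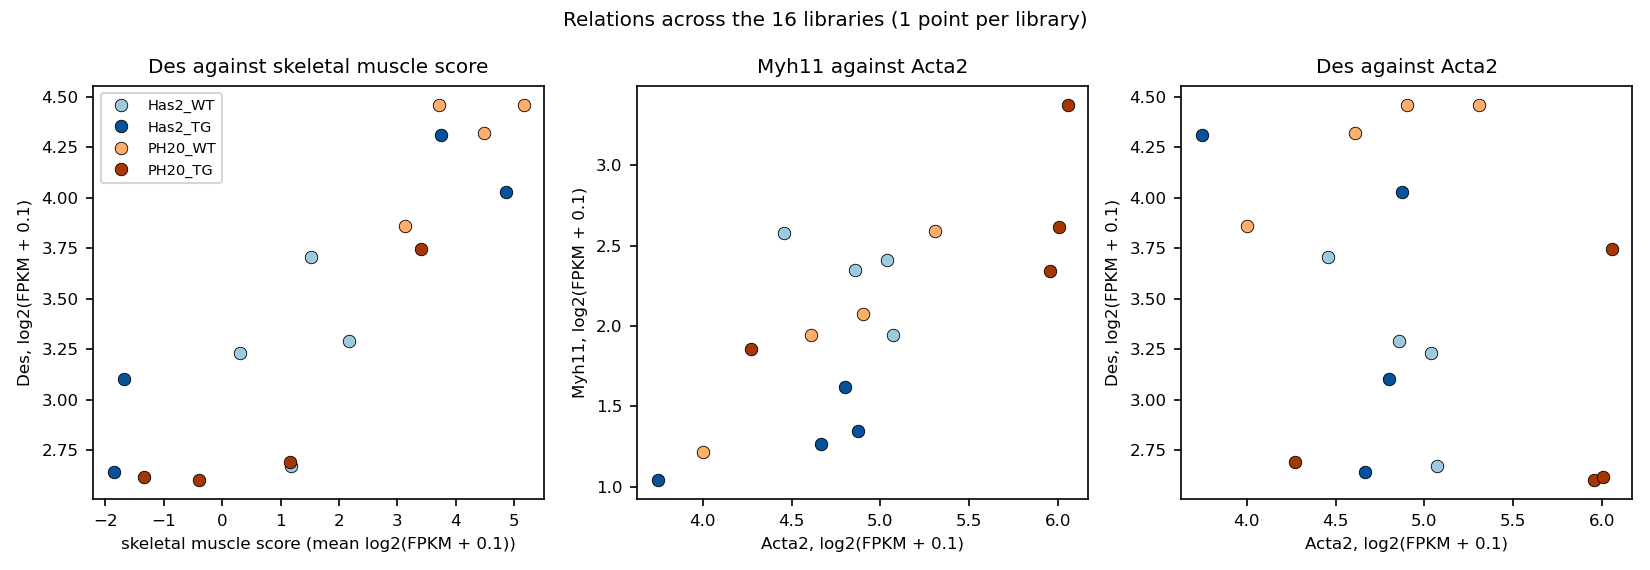
Des against the skeletal muscle score, Myh11 against Acta2 and Des against Acta2, all as log2(FPKM + 0.1), with 1 point per library coloured by group. The first panel has r = 0.87 and the second r = 0.75, and in the third (r = -0.32) PH20_TG1 and PH20_TG2 combine the lowest Des, 5.97 and 6.04 FPKM, with Acta2 of 61.9 and 64.3 FPKM.

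The genes whose pattern over the 16 libraries was most like the mean of the 7 tested genes were Lama5 (r = 0.78), Sorbs2 (0.77), Fam214a (0.76), Myl9 (0.75), Scaf1 (0.73), Notch3 (0.71), Dvl1 (0.70), Ptprk, Cpe and Mast4 (0.69 each), of 12593 genes. Myl9, the regulatory light chain that Mylk phosphorylates, had 28.2 ± 7.0 FPKM in Has2_WT, 23.9 ± 4.80 in Has2_TG, 28.1 ± 9.09 in PH20_WT and 40.2 ± 11.3 in PH20_TG (SD, n = 4). Its groups overlapped in both comparisons. With each gene centred within its group, 2 of these 10 genes, Sorbs2 and Scaf1, were again among the 10 most alike. The mean was not a pattern shared by every tested gene. Against the mean of the others over the 16 libraries, Des had r = -0.24 and Synpo2 -0.008, while the rest had 0.37 (Mylk) to 0.67 (Myh11).

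The wider contractile machinery was followed in a list of 26 partners, among them tropomyosins, light chains, filament linkers and subunits of the myosin phosphatase. In Has2_TG, 4 of 20 tested partners were higher and 1 was lower, beside 6.25% and 3.75% of all genes tested. Synm, encoding the intermediate filament protein synemin, rose by 0.83 on the log2 scale (SE 0.31), Pdlim7, encoding an actin-associated scaffold, by 0.86 (SE 0.32), and Ppp1r12b, a targeting subunit of myosin phosphatase, by 0.60 (SE 0.25). Pdlim3, named after its values were seen like the next gene, rose by 1.45 (SE 0.64), and Vcl, encoding vinculin, fell by 0.56 (SE 0.24). Without Has2_WT1, or without Has2_TG2, 0 of the partners were called higher, so this count rested on single libraries, and Vcl was not called without 4 of the 8 libraries in turn. The median change of the 20 was 0.04, beside -0.03 over all genes.

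In PH20_TG, 2 of 21 tested partners were higher and 2 were lower, beside 3.20% and 3.39% of all genes tested. Ppp1r14a, which encodes the myosin phosphatase inhibitor CPI-17 of smooth muscle, had 1.28, 2.09, 3.598 and 3.25 FPKM in PH20_WT1 to PH20_WT4 and 3.93, 5.70, 4.78 and 6.52 FPKM in PH20_TG1 to PH20_TG4. The groups did not overlap, and Ppp1r14a rose by 1.08 on the log2 scale (SE 0.32, unadjusted p = 0.00836, limma adjusted p = 0.664). Cald1, encoding caldesmon and named after its values were seen, rose by 0.36 (SE 0.14). The 2 lower partners were Tpm2, encoding beta-tropomyosin, at -1.68 (SE 0.48), and Pdlim3, at -1.59 (SE 0.57), both also genes of striated muscle. In the fit with the skeletal muscle covariate 0 partners were called lower, and with the B cell score 0 were called higher. Without 1 library, 1 to 4 were higher and 1 to 4 were lower.

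Of 16 transcriptional regulators of these genes, 2 of 13 tested rose in Has2_TG and 0 fell, beside 6.25% and 3.75% of all genes. Klf4, a factor known to repress contractile genes in cultured smooth muscle cells and made by many other cell types, had 10.5, 9.05, 11.1 and 12.7 FPKM in Has2_WT1 to Has2_WT4 and 22.9, 27.0, 35.3 and 30.7 FPKM in Has2_TG1 to Has2_TG4. The groups did not overlap, and Klf4 rose by 1.40 on the log2 scale (SE 0.17, limma adjusted p = 0.0384). The adjusted call depended on the setting. After adjustment, no gene at all was called in Has2_TG with either alternative minimum, quantile scaling, no variance trend or the replicate block. Nor was any called in the fit of all 16 libraries, or when any single library other than Has2_WT4 was left out. In PH20_TG, Klf4 had 52.4, 11.01, 10.5 and 53.1 FPKM, on both sides of the range of PH20_WT (19.3 to 33.7 FPKM). Rbpj, the DNA-binding partner of Notch receptors, rose by 0.73 (SE 0.24) in Has2_TG, and Tead1 had 0.42 (SE 0.21, unadjusted p = 0.0800). In PH20_TG, 1 of 14 regulators fell, beside 3.39% of all genes. It was Mef2c at -0.65 (SE 0.24), a factor of striated and smooth muscle. It had 3.36 and 2.69 FPKM in PH20_WT1 and PH20_WT3, the controls with B cell RNA, and 2.32 and 2.28 FPKM in PH20_WT2 and PH20_WT4. In PH20_TG it had 1.16 to 2.15 FPKM. In the fit with the B cell covariate 1 of the 14 regulators was called lower. The part of B cell RNA in the change of Mef2c was not tested beyond this fit. Mef2c was not called in the fit with the skeletal muscle covariate, nor without PH20_WT1, PH20_TG2 or PH20_TG3 in turn. Rbpj at -0.53 (SE 0.35) and Heyl at 0.42 (SE 0.28) did not pass.

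Among 14 genes of vascular tone, 2 of 12 tested rose in Has2_TG, beside 6.25% of all genes. Npr1, the receptor of atrial natriuretic peptide, rose by 0.79 (SE 0.24) and Ednrb, an endothelin receptor, by 0.75 (SE 0.33), while Agtr1a, the angiotensin receptor, had 1.14 (SE 0.52, unadjusted p = 0.0527). In the fit with the B cell covariate 0 of them were called higher, and without 1 library 1 to 3 were. In PH20_TG, 1 of 11 rose, beside 3.20% of all genes. It was Gucy1b1, a subunit of the nitric oxide receptor guanylate cyclase, which rose by 0.78 (SE 0.30). Its partner subunit Gucy1a1 had 0.47 (SE 0.22, unadjusted p = 0.0647). The median of the 11 was 0.41, and in the fit with the B cell covariate it was 0.028 and 0 of them were called. Without 1 library, 0 to 3 of these genes were called higher, with 0 reached without PH20_WT3, PH20_TG2, PH20_TG3 or PH20_TG4.

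Pericytes wrap capillaries and share several contractile genes with smooth muscle. In PH20_TG, 4 of 12 tested markers rose and 0 fell, beside 3.20% and 3.39% of all genes. The median log2 fold change was 0.44 beside 0.01 over all genes, and all 12 estimates were positive. The sum of the 12 markers was 310 and 303 FPKM in PH20_TG1 and PH20_TG4, within the range of PH20_WT (227 to 418 FPKM). It was above that range in PH20_TG2 and PH20_TG3, at 590 and 493 FPKM. Higd1b had 2.42, 4.35, 3.29 and 2.77 FPKM in PH20_WT1 to PH20_WT4 and 5.24, 13.3, 6.23 and 6.22 FPKM in PH20_TG1 to PH20_TG4, and rose by 1.18 (SE 0.31). Pdgfrb, the platelet-derived growth factor receptor of mural cells and fibroblasts, rose by 0.47 (SE 0.14), with a range of 10.3 to 13.7 FPKM in PH20_WT and of 15.2 to 18.9 FPKM in PH20_TG. Neither gene overlapped between the groups. Notch3, the Notch receptor of mural cells, rose by 0.54 (SE 0.20), and Cspg4, named after its values were seen, by 0.78 (SE 0.31). Cspg4 had 6.05, 14.6, 14.1 and 6.89 FPKM in PH20_TG1 to PH20_TG4, against 4.34 to 6.98 FPKM in PH20_WT.

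In Has2_TG, 0 of 12 pericyte markers passed the unadjusted limma threshold, beside 6.25% of all genes that were higher and 3.75% that were lower. With voom weights 1 of the 12 was lower. The nearest were Cox4i2 at -0.83 (SE 0.37, unadjusted p = 0.0523), Cspg4 at -0.71 (SE 0.33) and Notch3 at -0.41 (SE 0.21). The difference between the lines passed for Notch3 (-0.96, SE 0.29) and Cspg4 (-1.49, SE 0.48), both with the sign of Acta2 and Myh11. In the fit with the B cell covariate 1 pericyte marker was called higher in PH20_TG and the median of the 12 was 0.11. With the skeletal muscle covariate 0 were called, at a median of 0.50. Without 1 library, 2 to 5 were called higher, and the median was 0.23 without PH20_WT1.

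Markers of other cells moved beside these results. In Has2_TG, 8 of 13 fibroblast and myofibroblast genes rose, with the smallest p-values for Fn1, Dcn and Col1a2, and their sum was 395 to 759 FPKM in Has2_WT and 879 to 1766 FPKM in Has2_TG. The list holds no smooth muscle gene. In PH20_TG 0 of 13 passed the unadjusted threshold, and the libraries were split. The sum was 1978 and 1837 FPKM in PH20_TG1 and PH20_TG4 and 444 and 641 FPKM in PH20_TG2 and PH20_TG3. In PH20_WT it was 470 to 1348 FPKM. Of the 10 endothelial markers, 1 rose in each comparison, Tek in Has2_TG and Egfl7 in PH20_TG. Of the 8 B cell markers, 3 fell in Has2_TG and 4 in PH20_TG, and of the 8 adipocyte markers 0 passed in either. Over all genes tested, 6.25% rose and 3.75% fell in Has2_TG, and 3.20% rose and 3.39% fell in PH20_TG. Among 4 keratinocyte markers 1 was tested, in Has2_TG, and did not pass. The part of these cells in the changes of Myh11, Acta2 and the pericyte markers was not tested beyond the covariate fits given beside them.

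**Figure D4:**
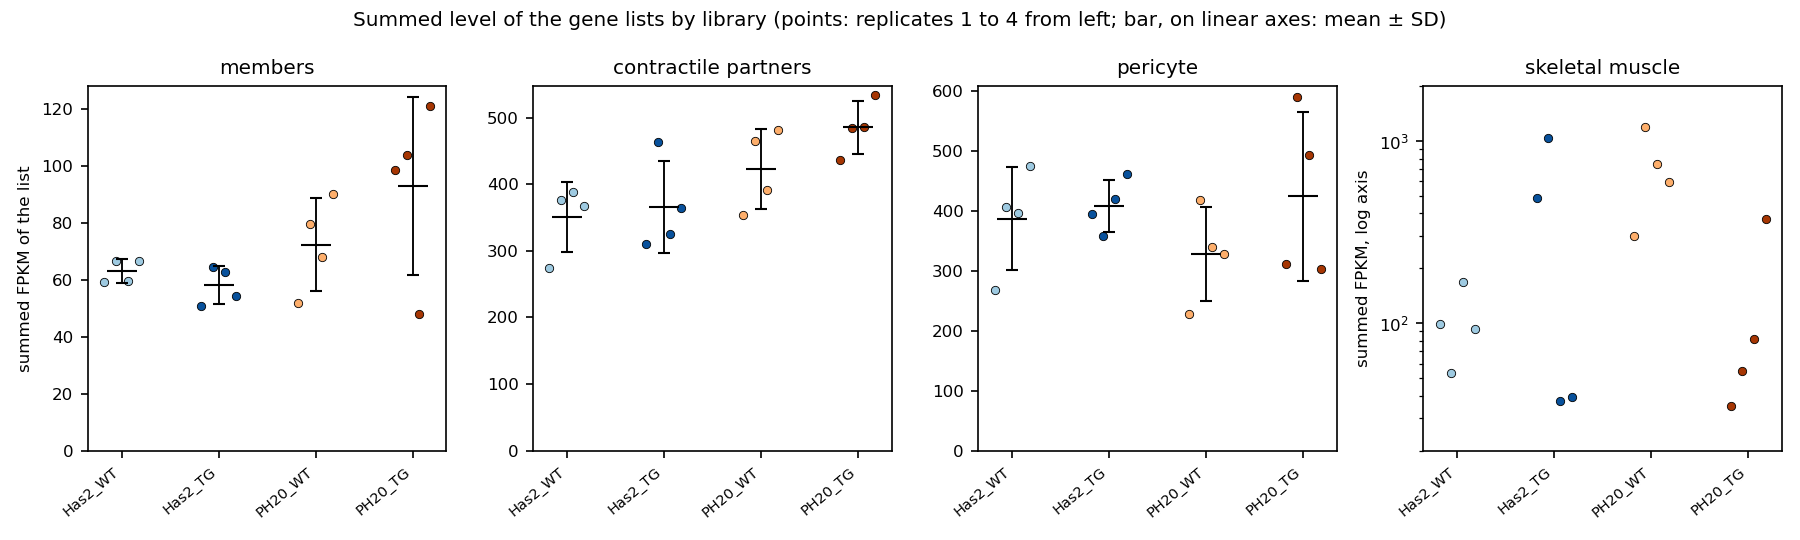
Summed FPKM of the 10 contractile genes, the 26 contractile partners, the 12 pericyte markers and the 15 skeletal muscle markers in the 16 libraries, with replicates 1 to 4 from left and, on the linear axes, the mean ± SD. The summed contractile genes of PH20_TG spread from 48.1 to 121 FPKM, and the skeletal muscle sum, on a log axis without bars, spans 34.9 to 1199 FPKM.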

How the data were processed

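Total RNA of iWAT was sequenced in 16 libraries of 4 groups. The authors ran FastQC (0.11.9), aligned the reads with STAR (2.7.9a) to GRCm38, counted reads per gene, excluded genes with a low average count and tested with DESeq2, per the methods and the submitters' processing notes. The deposited values used here are FPKM per gene and library, with gene lengths, and already hold a scaling between libraries: the library total behind them was 0.886 to 1.14 times the reads on genes. FPKM times length and total gave whole reads (within 0.01) in 100% of values.

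The 10 genes and the other lists were chosen with earlier results of these data known, which holds for every count of a list. The moderated two-sided test of limma (3.58.1, R 4.3.3), with a variance trend, was run on log2(FPKM + 0.1) in the 8 libraries of each line, on genes whose mean reached 50 reads. Fold changes are therefore those of FPKM + 0.1, which understates changes of low genes. A call is an unadjusted p under 0.05, the threshold of the study, with Benjamini-Hochberg adjustment over all genes beside it. A fit of all 16 libraries gave the difference between the lines and the comparison of controls. The deposited values are FPKM, so limma was fixed as the test and DESeq2 was not run. The whole reads recovered from these values served for the minimum of reads. Named were all 10 genes, the 3 genes of smallest p in each of the partner, regulator, vascular tone and pericyte lists per comparison, and the 10 genes most correlated with the mean of the tested members. The alternatives changed the pseudocount to 1, the minimum of reads to none or to a mean FPKM of 1, and used median-of-ratios and quantile scaling, voom weights, all 16 libraries in 1 fit, no variance trend, a replicate block, the skeletal muscle or B cell score as a covariate, and each library left out. The procedure was tested on simulated data. In all 120 pairs, libraries differed by more than sampling noise (chi-square of at least 28.7 per degree of freedom). Promoters and coordinates are from RefSeq (GRCm38.p6) and the deposited table (GRCm38). Intervals of fold changes are those of limma and rest on the spread between libraries.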

Additional observations from a re-analysis of the deposited data

Results flagged for a closer look

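Libraries standing apart within their group were found in 5 of the 40 combinations of gene and group by Dixon's criterion for 4 values, where chance gives about 1 in 20. In PH20_TG, Acta2 was 19.2 FPKM in PH20_TG3 against 61.9 to 66.4 FPKM in the others, and Des was 13.3 FPKM in PH20_TG4 against 5.97 to 6.37 FPKM. In PH20_WT, Actg2 was 3.59 FPKM in PH20_WT4 against 0 to 0.326 FPKM, Smtn was 11.5 FPKM in PH20_WT2 against 8.86 to 9.17 FPKM, and Synpo2 was 2.25 FPKM in PH20_WT4 against 5.57 to 6.08 FPKM.

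The change in Has2_TG minus the change in PH20_TG passed the test of the difference itself for Acta2 (-1.20 on the log2 scale), Myh11 (-1.59) and Des (1.66).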

How the results depend on the processing

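Myh11 in Has2_TG kept its direction and call in 11 of 11 alternatives with all libraries (-1.06 to -0.80), and Des in PH20_TG in 10 of 11 (-1.54 to -1.26). In the remaining alternative, with the skeletal muscle covariate, Des was -0.54 and was not called. The count of contractile genes higher in Has2_TG became 1 with no minimum of reads (Tagln). The count higher in PH20_TG became 1 with all 16 libraries in 1 fit (Acta2, unadjusted p = 0.0376), 1 with the skeletal muscle covariate (Smtn), 2 with the replicate block, and 0 to 1 without 1 library, with 1 reached without PH20_WT2 or PH20_TG3. The count lower in PH20_TG became 0 with the skeletal muscle covariate. Without 1 library, 1 to 2 genes differed between the controls, with Smtn called as well without Has2_WT1 or Has2_WT4, and 2 to 3 differed in their change between the lines. The median change in Has2_TG was -0.13 with a pseudocount of 1, -0.056 with no minimum, -0.12 with voom weights and -0.44 to -0.066 without 1 library. Values that changed sign were these: Lmod1 in PH20_TG was -0.17 with the B cell covariate and -0.19 to 0.22 without 1 library, Synpo2 in PH20_TG -0.31 with the skeletal muscle covariate and -0.27 to 0.35, Mylk and Smtn in Has2_TG -0.066 to 0.15 and -0.023 to 0.22, and Acta2 and Synpo2 between the controls -0.082 to 0.35 and -0.038 to 0.49. Except where a setting adds genes or removes a library, the cause was not tested.

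Libraries of the same replicate number deviated together in some pairs and not in others. The correlation of their deviations from the group mean was -0.01, 0.13, -0.18 and 0.01 for replicates 1 to 4 of the Has2 line and 0.35, 0.42, -0.03 and -0.04 for those of the PH20 line, where differently numbered libraries reached 0.24 and 0.31 beside the first 2. Since not every pair was over 0.1, the numbers were not taken to pair the mice. With the replicate block, 1 gene was lower in Has2_TG and 1 in PH20_TG, and the genes higher in PH20_TG went from 0 to 2 (Acta2, unadjusted p = 0.0427, and Myh11, unadjusted p = 0.0341). Depth limits Tagln, Cnn1 and Actg2, whose 0 to 88 reads per library put them under the minimum of the test.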

Other observations

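With no minimum of reads, the 3 genes under the minimum could be fitted in both lines. In Has2_TG, Tagln had a log2 fold change of 1.64 (SE 0.67, unadjusted p = 0.0368, limma adjusted p = 0.720), on at most 15 reads in the control libraries. Cnn1 had 0.46 (SE 0.86) and Actg2 -0.12 (SE 1.16). In PH20_TG, Tagln had 0.33 (SE 0.69), Cnn1 1.19 (SE 0.81) and Actg2 1.19 (SE 1.10), and none of the 3 passed.

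With each gene centred within its group, differences between groups play no part. The genes then most like the mean of the 7 tested contractile genes were led by Klhl33 (r = 0.79), Zfp354a (0.78), Pon1 and Ccdc186 (0.73 each). Against the mean of the other tested genes, Des had r = -0.003 and Synpo2 -0.013, while the rest had 0.21 (Lmod1) to 0.71 (Myh11). The correlation of Acta2 and Myh11 was 0.70.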
